A study of Mus musculus with 5 samples.

Results

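Collagens, laminins, the proteases that cut matrix and the inhibitors of those proteases were examined in leukocytes of the mouse lung. The members were the rows of the deposited expression table whose gene symbol begins as a collagen chain (Col, a number, a), a laminin chain (Lama, Lamb, Lamc), Mmp, Timp, Adam with a number, Adamts, Lox or Serpin, without Mmp8 and Mmp9. The rule, which reads gene symbols only, found 107 of 14462 rows. By role, 48 members were matrix proteins (33 collagen chains, 10 laminin chains and 5 ADAMTS-like proteins), 38 were proteases (14 ADAM, 13 ADAMTS and 11 matrix metalloproteinases) and 19 were inhibitors or other serpins (2 TIMPs and 17 serpins). Loxl3 was the sole cross-linking enzyme, and Loxhd1 fits by its name only. Roles follow the gene family, so the proteases include ADAM proteins without a working protease site, such as Adam22 and Adam23.

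The study measured total RNA of CD45+ cells sorted from the lungs of mice carrying the tumour label MC38/MC38, where MC38 is a mouse colon carcinoma line and CD45 is the surface protein shared by leukocytes. The ctrl group held 3 libraries and the IR group, in which MC38 tumours were irradiated, held 2, and lungs were taken 3 days after irradiation. The growth note on irradiation stands in the labels of both groups, so the groups were separated by the treatment label alone (ctrl or IR). Strain, age, sex, radiation dose and which tumour was irradiated are not stated in the labels, nor whether each library is 1 animal, so p-values measure only the spread between these libraries.

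Collagens form the fibres and sheets of the extracellular matrix, and laminins build the basement membrane under epithelium and around vessels. In the lung both are made mainly by fibroblasts, epithelium and endothelium, whereas leukocytes carry proteases that release surface proteins or open the matrix for migration. ADAM proteins are membrane-anchored proteases that shed the outer parts of other proteins, ADAMTS proteins are secreted and act on proteoglycans and procollagens, and matrix metalloproteinases cleave matrix directly. TIMPs block metalloproteinases, and serpins trap serine proteases such as those of neutrophil granules.

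Values are read counts scaled by the authors, given with 1 decimal, and are called scaled values here. They summed to between 7232130 and 7425920 in the ctrl libraries and to 7544030 and 8414750 in the IR libraries. The smallest steps between low values correspond to about 8026900 to 10233300 reads per library, so that 1 read was worth 0.726 to 0.934. Between 4.68% and 13.8% of rows were listed at 0 in a library, the largest share in IR replicate 2. Ptprc, which encodes CD45, was at 15842, 15543 and 15788 in ctrl and at 17369 and 27246.5 in IR. Of the fibroblast and pericyte markers, the receptors Pdgfra and Pdgfrb did not exceed 1.4 in any library, whereas Gsn, Pi16 and Acta2 were present in every library, at no less than 72.9. In such bulk libraries, fewer cells of a type and less RNA per cell cannot be told apart.

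Most of the matrix genes were barely present in these cells, whereas several ADAM proteases were abundant. Of the 107 members, 5 were listed at 0 in every library (Adamts18, Col16a1, Col22a1, Col28a1 and Mmp1a), and 19, these 5 included, stayed under a scaled value of 10 in all libraries. Testing required 2 or more libraries with a value of 10 or above, and 67 members met this minimum: 25 matrix proteins, 24 proteases and 18 inhibitors or other serpins. Members took 0.134%, 0.149% and 0.147% of the library total in ctrl and 0.172% and 0.190% in IR. Proteases made up most of that share, at 0.0847%, 0.107% and 0.0951% in ctrl against 0.118% and 0.137% in IR. Matrix proteins held 0.0132% to 0.0164% in ctrl against 0.0181% and 0.0136% in IR, and inhibitors 0.0253% to 0.0361% against 0.0355% and 0.0391%.

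**Figure D1:**
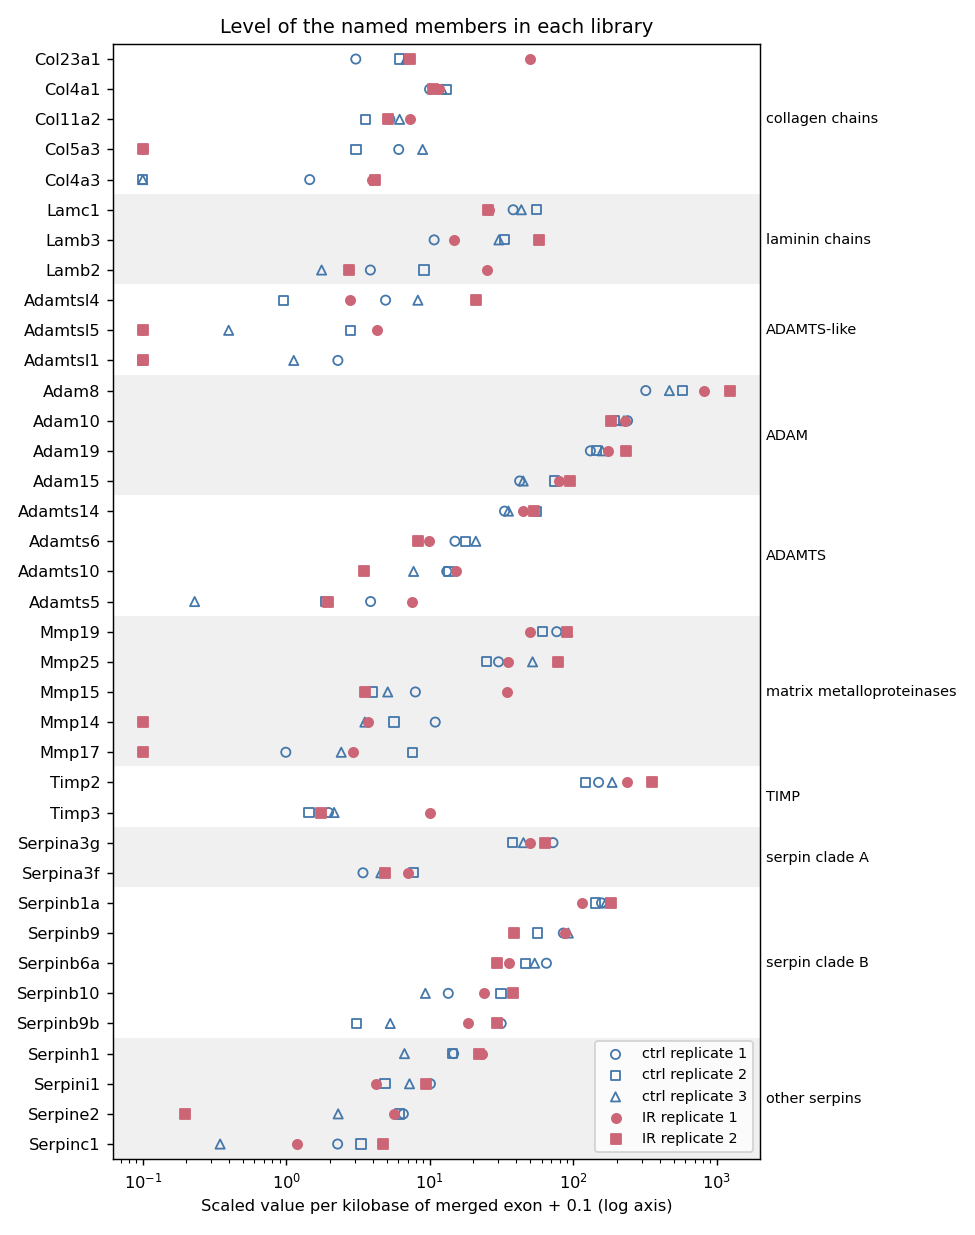
Scaled value per kilobase of merged exon, with 0.1 added, on a log axis for the named members in each of the 5 libraries (open symbols ctrl, filled symbols IR). Adam8 is highest, with both IR libraries right of the 3 ctrl libraries, and symbols at 0.1 are libraries in which the gene was listed at 0.

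Of the 67 members tested, 1 passed the threshold, the protease Adam8, which was higher in IR. That is 1.49% of the members tested, next to 1.5% (192 of 12777) of all genes tested, or 1.14% counting only genes higher in IR. Each gene was tested with limma on log2(value + 1), two-sided, with Benjamini-Hochberg adjustment over all 12777 genes and a threshold of 0.05. At an unadjusted p under 0.05 there were 10 members (14.9%), 6 higher and 4 lower, next to 15% of all genes tested. The IR libraries lay wholly above the ctrl libraries in 9 members and wholly below in 7, together 23.9% of those tested, next to 31.5% of all genes. The shares of members past these rules were thus near or below those of all genes.

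The median log2 fold change, IR against ctrl, was 0.33 over the members tested and -0.05 over all genes tested. It was 0.56 in the matrix proteins, 0.59 in the inhibitors and other serpins and -0.06 in the proteases. These medians are descriptions and were not tested, and 20 of the 67 members were listed at 0 in at least 1 library. The count of members called was 0 without ctrl replicate 1 or ctrl replicate 2, and 4 without IR replicate 1 (Adam8 and Timp2 higher, Col5a3 and Mmp14 lower). Without IR replicate 2 it was 1, then Col23a1 and not Adam8.

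**Figure D2:**
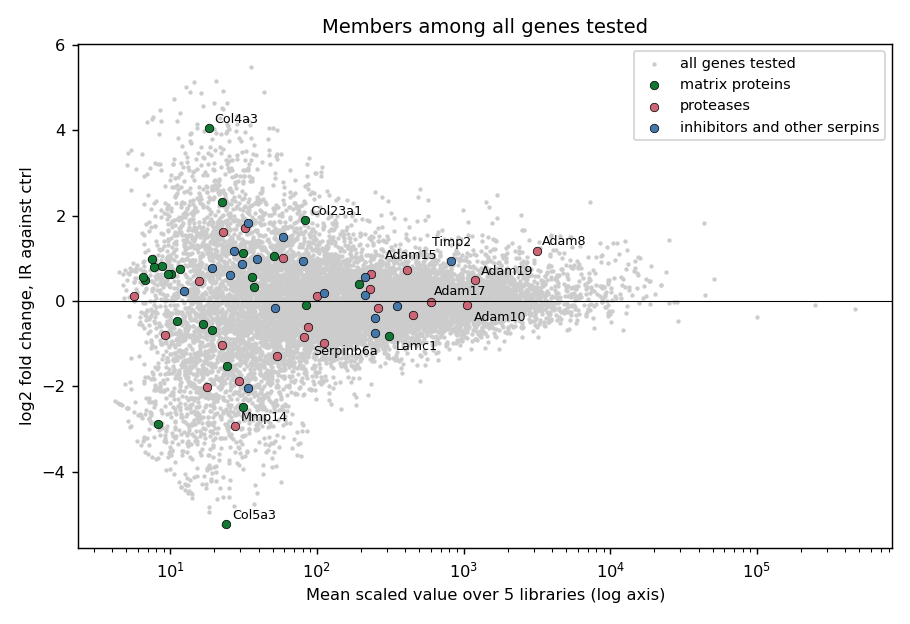
Log2 fold change, IR against ctrl, against the mean scaled value over 5 libraries (log axis), for all 12777 genes tested (grey) and the 67 members tested, coloured by role. The members with the widest changes, Col4a3 and Col5a3, lie at low means where libraries at 0 set the value, while Adam8 stands out at a high mean.

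Adam8 encodes a membrane-anchored protease found on neutrophils and other myeloid cells, where it sheds adhesion molecules. The gene (ENSMUSG00000025473.16) is protein-coding and lies at chr7:139978932-139992562 on the minus strand of GRCm38. Because it is the member that passed the test, the 250 bases before its RefSeq start (GRCm38.p6, chr7:139992563-139992812, minus strand) are shown, with matches to a CCAAT box (CCAAT) and a GC box (GGGCGG) on either strand in capitals.
Adam8 promoter: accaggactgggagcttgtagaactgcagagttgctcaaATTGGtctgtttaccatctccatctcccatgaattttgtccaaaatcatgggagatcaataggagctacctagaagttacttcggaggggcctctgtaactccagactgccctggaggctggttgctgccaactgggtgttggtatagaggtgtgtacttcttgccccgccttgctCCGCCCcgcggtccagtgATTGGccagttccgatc
The CCAAT box has 2 matches, beginning 211 and 17 bases before the start, and the GC box has 1, at 35 bases. Of 32851 mouse promoter windows of the same length, 33.8% hold a CCAAT box and 32.7% a GC box. No match was found in this window to TATAAA (present in 12.4% of windows), to the AP-1 letters TGANTCA (6.75%) or to the PU.1-type letters GAGGAAGT (2.44%). A match is a description of letters and not a measured binding site.

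The scaled value of Adam8 was 1478.1, 2650.9 and 2159.4 in ctrl replicates 1, 2 and 3, and 3740.8 and 5743.5 in IR replicates 1 and 2. Both IR libraries lay above every ctrl library. The ctrl mean was 2096 ± 589 (SD, n = 3) and the IR mean 4742 ± 1416 (SD, n = 2), or 452 ± 127 and 1022 ± 305 per kilobase of exon. The log2 fold change was 1.19 ± 0.24 (SE), with an adjusted p of 0.0160 by limma. Adam8 no longer passed without ctrl replicate 1 (adjusted p = 0.163), without ctrl replicate 2 (0.0517), without IR replicate 2 (0.119) or with no minimum value (0.0990). It passed without ctrl replicate 3 (0.0490) and without IR replicate 1 (0.00277), and the log2 fold change was above 0 in each of these.

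The antisense gene Gm16201 overlaps an exon of Adam8, and its scaled value was between 10.9 and 78.1, far under that of Adam8 in every library. Neutrophil markers moved with Adam8. All 14 of 14 neutrophil markers measured, of 15 listed, had both IR libraries above every ctrl library, next to 15.2% of all genes tested. Of the 14 markers, 5 rose past the threshold, next to 1.14% of all genes tested. Their summed value was 30108, 40323 and 53358 in ctrl and 73831 and 143548 in IR, and none was listed at 0. Within ctrl, Adam8 was highest in replicate 2 whereas the neutrophil sum, of which S100a9 was the largest part, was highest in replicate 3. Single markers differed in this. Clec4d (610.2, 1291.7 and 1162.9 in ctrl replicates 1, 2 and 3), Lcn2 (418.3, 880.6 and 858.5), Ltf and Ly6g were highest in replicate 2. The remaining markers measured were highest in replicate 3. The part of neutrophil number in the Adam8 result was not tested.

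The other abundant ADAM proteases did not pass the test. Adam19, a sheddase of growth factor precursors, was at 932.2, 1033.1 and 1125 in ctrl and at 1246.9 and 1661.8 in IR, without overlap, with a log2 fold change of 0.49 ± 0.22 and an adjusted p of 0.298. Adam15, which carries an integrin-binding disintegrin domain, was at 258.6, 453.1 and 273.7 in ctrl and at 483.3 and 579.1 in IR, again without overlap (0.73 ± 0.31, adjusted p = 0.264). Adam10, the main sheddase of Notch receptors, overlapped between the groups at 1168.8, 942.7 and 1103.8 against 1124.5 and 897.7. Its log2 fold change was -0.09 ± 0.22. Adam17, which releases TNF, was at 569.1 to 621.2 in ctrl and at 518.8 and 662.3 in IR (-0.03 ± 0.25), and Adam9 at 366.8 to 730.8 against 394.5 and 360.6 (-0.33 ± 0.31).

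Per kilobase of exon, the mean level over the 5 libraries ran from Adam8 (680) through Adam10 (213), Adam19 (169), Adam9 (109) and Adam17 (83.2) to Adam15 (66.6). In ctrl alone, Adam10 at 218 ± 23.7 and Adam19 at 145 ± 13.5 did not overlap, while Adam9 (121 ± 49.3) and Adam17 (83.6 ± 3.71) differed by less than the SD of Adam9. Of 13 ADAM members tested, 3 reached an unadjusted p under 0.05 in the higher direction (Adam8, Adam15 and Adam19) and 0 in the lower. Over all 12777 genes tested, 992 did so in the higher direction and 920 in the lower. Adam22 and Adam23, ADAM proteins that lack a working protease site, had IR libraries below every ctrl library. Adam22 was at 58.3, 117.9 and 38.6 against 25.2 and 26 (adjusted p = 0.452), and Adam23 at 92.1, 113.3 and 87.6 against 73.8 and 38.6 (0.533).

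**Figure D3:**
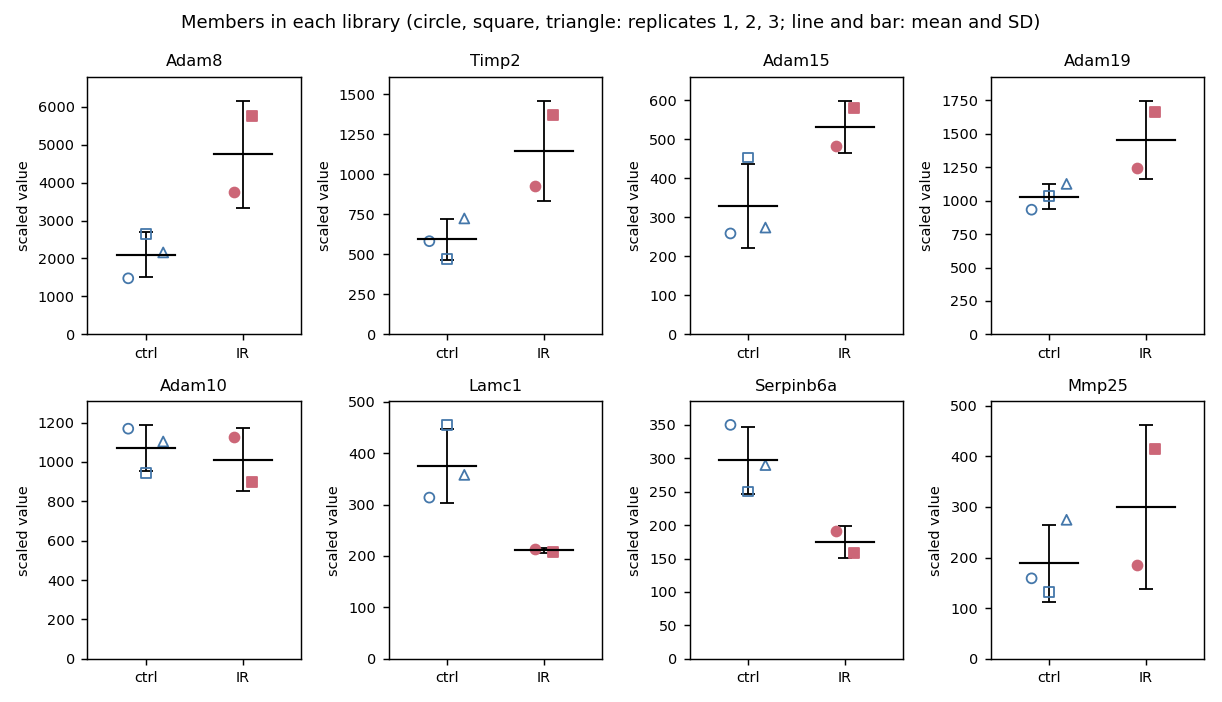
Scaled values of 8 members in the 3 ctrl (blue, open) and 2 IR (red, filled) libraries, with a line at the group mean and a bar for the SD. Adam8, Timp2, Adam15 and Adam19 have both IR libraries above ctrl, Lamc1 and Serpinb6a have both below, and Adam10 and Mmp25 overlap. Adam8 alone passed the threshold.

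Among ADAMTS proteases, 5 of 13 were tested and 0 passed by limma, with 0 at an unadjusted p under 0.05. Adamts14, a procollagen N-proteinase, was the most abundant at 171.5, 286.8 and 182.5 in ctrl and at 231.8 and 275.7 in IR, with overlapping groups (0.28 ± 0.37). Adamts6 was at 115.8, 137.9 and 162.1 in ctrl and at 75.7 and 63.8 in IR. Its groups did not overlap, with a log2 fold change of -0.97 ± 0.50 and an adjusted p of 0.368. Adamts10, linked to fibrillin microfibrils, overlapped at 107.3, 111.4 and 62.7 against 124.3 and 27.7. Adamts5, a proteoglycan-degrading aggrecanase, ranged from 1.4 to 40.6 in ctrl and was at 79.5 and 20.1 in IR.

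Of the 11 matrix metalloproteinases, 6 were tested and 0 passed by limma, with 1 (Mmp14, lower) at an unadjusted p under 0.05. Mmp19, a metalloproteinase with basement membrane substrates, was the most abundant per kilobase (73.7), at 269.6, 214.7 and 321.9 in ctrl and 175.7 and 319.4 in IR. Mmp25, a membrane-anchored metalloproteinase of leukocytes, followed at 43.9 per kilobase, with scaled values of 158.9, 131.5 and 274.5 in ctrl and of 185.1 and 414.4 in IR. Both overlapped between the groups, with log2 fold changes of -0.16 ± 0.36 for Mmp19 and 0.63 ± 0.42 for Mmp25.

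Mmp14, the membrane collagenase that activates the Mmp2 precursor, was at 64.3, 32.9 and 20.4 in ctrl and at 21.5 and 0 in IR, and its groups overlapped (adjusted p = 0.333). It passed without IR replicate 1 (0.0350), when its sole IR library was the one listed at 0. Mmp17 was likewise listed at 0 in IR replicate 2, with 18.7 in IR replicate 1 and 5.9, 49.4 and 15.3 in ctrl. Mmp2, a gelatinase made by stromal cells, was at 0, 8.2 and 0 in ctrl and at 9.3 and 0 in IR, and Mmp12, the macrophage elastase, ranged from 0 to 19.3 over all libraries.

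Collagen chains were low throughout. Of 33 chains, 19 were tested and 0 passed by limma, with 3 at an unadjusted p under 0.05 (Col4a3 and Col23a1 higher, Col5a3 lower). The chains of the main fibril collagens were close to absent. Col1a1 was at 4.2, 0 and 4.3 in ctrl and at 0 and 10.9 in IR, Col1a2 at 15.2, 0 and 0.7 against 0 and 27.7, and Col3a1 at 2.5, 0 and 21.9 against 0.9 and 22.7. The 6 chains of collagens I, III and V together summed to 65.8, 28.3 and 99.1 in ctrl and to 0.9 and 61.3 in IR.

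Collagen IV, the sheet-forming collagen of basement membranes, gave the steadiest collagen values through Col4a1. It was at 73.5, 96.8 and 89.8 in ctrl and at 85.1 and 77.3 in IR, with a log2 fold change of -0.09 ± 0.56, a mean of 11.3 per kilobase and overlapping groups. Col4a3, a chain of the collagen IV network of alveolar and kidney basement membranes, was at 13.5 in ctrl replicate 1, listed at 0 in ctrl replicates 2 and 3, and at 38.3 and 40.4 in IR. Its IR libraries lay above ctrl, with an adjusted p of 0.298. Col4a5, a partner chain of Col4a3, was at 18.6, 0 and 16 in ctrl and at 58.9 and 19.3 in IR, without overlap (adjusted p = 0.503).

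Col5a3, a chain of a minor fibril collagen, was at 40.6, 20.1 and 59.9 in ctrl and was listed at 0 in both IR libraries, so the groups did not overlap. Its adjusted p was 0.111, and 0.0302 without IR replicate 1. Col23a1, a transmembrane collagen, was at 16.9, 34.7 and 38.6 in ctrl and at 284.2 and 41.2 in IR. Its IR libraries lay above ctrl, the second by a small step, with an adjusted p of 0.278 and of 0.0487 without IR replicate 2. Col11a2 overlapped at 35.5, 23.7 and 41.6 against 49.5 and 34.4.

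Of 10 laminin chains, 3 were tested and 0 passed by limma, with 1 (Lamc1, lower) at an unadjusted p under 0.05. Lamc1, the gamma chain shared by most laminins, had the highest mean per kilobase over the 5 libraries among matrix proteins (37.4), at 45.4 ± 8.74 in ctrl and 25.5 ± 0.547 in IR. In IR alone, Lamb3 (35.9) and Col23a1 (28.4) had higher means per kilobase. Its scaled value was 313.5, 454.9 and 357.7 in ctrl and 214 and 207.6 in IR, and both IR libraries lay below every ctrl library. The log2 fold change was -0.81 ± 0.33, with an adjusted p of 0.232. Lamb3, the beta chain of the epithelial laminin, varied widely at 70.1, 217.4 and 199.3 in ctrl and at 97.2 and 377.4 in IR, and its groups overlapped. Lamb2 was at 22.8, 54.8 and 10.1 against 152.4 and 15.9. Lama1, Lama3, Lama4, Lamb1 and Lamc3 were not tested and did not exceed 15.2 in any library.

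The ADAMTS-like proteins, matrix glycoproteins without a protease domain, were low, and 0 of 3 tested passed by limma or reached an unadjusted p under 0.05. Adamtsl4, which binds fibrillin, was at 20.2, 3.6 and 34.2 in ctrl and at 11.2 and 87.4 in IR. Adamtsl1 was at 27.9, 0 and 13.1 in ctrl and was listed at 0 in both IR libraries, overlapping with ctrl replicate 2. The lysyl oxidase Loxl3, from the family that cross-links collagen and elastin, was at 1.7, 3.6 and 9.4 in ctrl and listed at 0 in IR, too low to test.

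Of 18 inhibitors and other serpins tested, 0 passed by limma, with 2 at an unadjusted p under 0.05 (Timp2 higher, Serpinb6a lower). Timp2, an inhibitor of metalloproteinases that also takes part in activating Mmp2, lies at chr11:118301069-118355740 in GRCm38 and came nearest to the threshold. It was at 582.3, 472.3 and 724.2 in ctrl and at 924.5 and 1368.4 in IR, and both IR libraries lay above every ctrl library. The mean was 593 ± 126 (SD, n = 3) against 1146 ± 314 (SD, n = 2), a log2 fold change of 0.94 ± 0.26 with an adjusted p of 0.0618. It passed with quantile normalization (0.0451), with 10 added before the log (0.0348) and without IR replicate 1 (0.0134). Timp3, a matrix-bound inhibitor, was at 15.2, 10.9 and 16.7 in ctrl and at 80.4 and 13.4 in IR, high in IR replicate 1 and within the ctrl range in IR replicate 2.

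Clade B serpins act mostly inside cells, and several of them block granule proteases. Serpinb1a, a neutrophil elastase inhibitor, was the most abundant serpin per kilobase (153), at 360.9, 328.8 and 386.2 in ctrl and 265.5 and 416.9 in IR, with overlapping groups. Serpinb9, which blocks granzyme B, overlapped too, at 296.6, 195.5 and 321.2 against 302.9 and 134.5. Serpinb6a was at 349.9, 250.3 and 289.8 in ctrl and lower in both IR libraries, at 191.6 and 158 (-0.75 ± 0.36, adjusted p = 0.321). The gene has relatives in the same family (Serpinb6b among them), and Serpinb1a, Serpinb9, Serpinb9b, Serpina3f and Serpina3g do too. How alike their sequences are was not measured. Reads may be split between relatives, so these values are uncertain. Serpinb10 shares exon bases on the same strand with Serpinb2 and is a polymorphic pseudogene in GENCODE.

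Among the other serpins, Serpinh1, the collagen chaperone of the endoplasmic reticulum, was at 35.5, 34.7 and 16 in ctrl and at 56.1 and 53.8 in IR. The IR libraries of Serpinh1 lay above ctrl, with a log2 fold change of 0.99 ± 0.86 and an adjusted p of 0.631. Serpine2 was at 53.3, 50.3 and 18.2 in ctrl against 45.8 and 0.8. In Serpina3g, induced in activated lymphocytes, the groups overlapped at 151.3, 78.5 and 94.1 against 104.7 and 133.7.

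Several members were high in 1 library only. A value of at least 50 that made up more than 50% of the sum over the 5 libraries was found in 11 of 107 members (10.3%), next to 610 of 14462 rows (4.22%). This count was chosen after the values were seen. In 7 members the high library was IR replicate 1 (Adamts2, Col23a1, Col4a5, Lama5, Lamb2, Mmp15 and Timp3). In 4 it was IR replicate 2 (Adam33, Adamts20, Adamtsl4 and Serpinb2), and in 0 a ctrl library. That 0 depends on the minimum of 50. Below it, ctrl replicate 2 held 55.3% of the sum of Mmp17 (49.4), 100% of Adamts13 (43.9) and 94.8% of Col9a3 (34.7). On the other side, IR replicate 1 held 78.4% of Col6a2 (49.5). Over all rows the high library was IR replicate 1 in 189, IR replicate 2 in 208 and a ctrl library in 57, 135 and 21.

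Lama5, the alpha chain of the main adult basement membrane laminin, was at 5, 7.3 and 8.7 in ctrl, at 101.9 in IR replicate 1 and at 2.5 in IR replicate 2. Mmp15, a membrane-type metalloproteinase, was at 42.2, 21 and 26.9 in ctrl, and IR replicate 1 held 185.1 against 18.4 in the other IR library. Adam33 was at 0, 13.7 and 1.4 in ctrl, with 99.3 in IR replicate 2 and 0 in the other IR library. In each of these 3 genes 1 IR library stood alone while the other lay within or below the ctrl range.

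Epithelial markers were also highest in IR replicate 1. The 17 markers measured, of 18 listed, summed to 26755, 28327 and 24277 in ctrl and to 119711 and 58587 in IR. Without the secretoglobins Scgb1a1 and Scgb3a2 the other 15 summed to 7411, 4573.6 and 4398.7 in ctrl and to 11502.2 and 5102 in IR. Of the 17, 2 rose past the threshold. Both IR libraries lay above every ctrl library in 6 and below in 1, next to 15.2% and 16.3% of all genes tested. Among the 6 was Sftpb, at 3585.7 and 1361.7 against 616.1 to 989.6 in ctrl (adjusted p = 0.0723 by limma). Epcam was the 1 below, at 45.8 and 74.8 against 133.4 to 185.1 in ctrl. The ciliated-cell marker Foxj1 was at 13.7 to 16.7 in ctrl, at 42.1 in IR replicate 1 and listed at 0 in IR replicate 2. Fibroblast and pericyte markers (8 measured of 18) summed to 2517.5, 2560.4 and 3958 in ctrl and to 4196 and 6292.5 in IR. Pdgfra and Pdgfrb were listed at 0 in both IR libraries, while Pi16 rose, from 515.5, 774.6 and 792.8 in ctrl to 1066.5 and 2086.3 in IR (adjusted p = 0.0414), as the sole call among 5 tested. Acta2 was above ctrl in both IR libraries, at 164.5 and 387.6 against 72.9 to 137.7 (adjusted p = 0.143). Endothelial markers (10 measured of 15) summed to 1175.5 to 1673.2 in ctrl and to 1338.4 and 1170 in IR, and 0 of 7 tested passed by limma, with 1 at an unadjusted p under 0.05. That gene, Kdr, was at 262.7 and 105.9 in IR against 30.4 to 63 in ctrl (adjusted p = 0.110), and Ednrb also lay above ctrl in both IR libraries. Cdh5 lay below ctrl in both, and Tek, Tie1 and Egfl7 were listed at 0 in both IR libraries and in at least 1 ctrl library. The part of these cells in the matrix values was not tested.

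**Figure D4:**
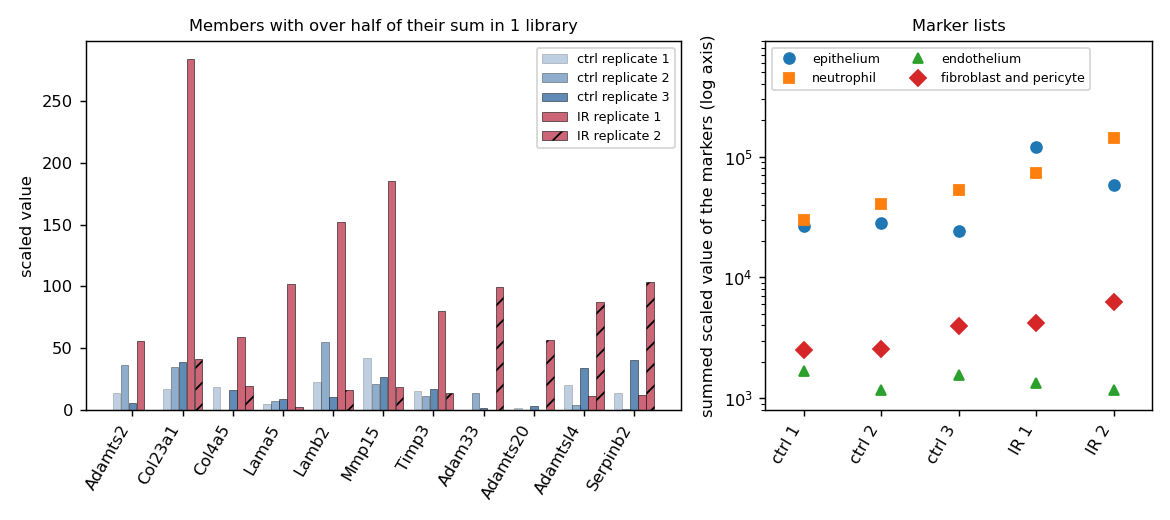
Left, scaled values of the 11 members with more than 50% of their sum in 1 library at a value of at least 50. Bars run from 0 for each of the 5 libraries. Right, summed scaled values of 4 marker lists in each library on a log axis: epithelial markers are highest in IR replicate 1 and neutrophil markers in IR replicate 2.

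Genes that work beside the members were taken from 5 further lists. Of 24 other matrix glycoproteins and proteoglycans tested, 2 rose and 0 fell by limma, next to 1.14% and 0.36% of all genes tested. Emilin2, an elastin-associated glycoprotein, was at 4251.9, 4348.2 and 3912.3 in ctrl and at 5651.4 and 9051.9 in IR (0.78 ± 0.20, adjusted p = 0.0485). Tgfbi, a secreted integrin ligand induced by TGF-beta, was at 4141.2, 4802.2 and 4796.4 against 6259 and 9941.2 (0.79 ± 0.20, adjusted p = 0.0460). Both were above ctrl in both IR libraries, yet leaving out any library but IR replicate 1 ended both calls (adjusted p = 0.161 to 0.443), as did several other settings, quantile normalization among them (0.134 and 0.0876). Fn1, fibronectin, was at 12902.8, 12807.1 and 8690.5 against 15270.8 and 13066.4 and did not pass, nor did the proteoglycan Srgn (adjusted p = 0.125).

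Slpi, a secreted inhibitor of neutrophil elastase, rose as the sole one of 15 other protease inhibitors tested to pass by limma. It was at 638.9, 894.3 and 1119.1 in ctrl and at 1686.3 and 2211.5 in IR, without overlap (1.16 ± 0.24, adjusted p = 0.0139). The call on Slpi was lost when ctrl replicate 1 was left out (adjusted p = 0.163), and likewise for ctrl replicate 2 (0.108) and IR replicate 2 (0.0957). In the other 3 lists, limma called 0 of 16 collagen-processing enzymes, 0 of 19 matrix receptors and 0 of 10 plasminogen-system and other matrix-cleaving enzymes. At an unadjusted p under 0.05 these held 2 higher and 0 lower, 3 higher and 1 lower, and 1 higher and 1 lower. Over all 12777 genes tested, 992 were higher and 920 lower at that level.

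Cd44, the hyaluronan receptor, was at 10527.9, 11406.8 and 12626.2 in ctrl and at 14624 and 23765.8 in IR (adjusted p = 0.0684). Plaur, the urokinase receptor, was at 4519.8, 3768.1 and 5273.8 against 5707.5 and 10721.3 (0.0903). In both the IR libraries lay above ctrl, with IR replicate 2 highest. Ctss, a cathepsin of antigen-presenting cells, was lower in both IR libraries, at 8491.2 and 8438.3 against 8958.6 to 12170.9, with a log2 fold change of -0.29 ± 0.18. Log2 fold changes were negative in 9 of 9 B cell, 11 of 11 T cell and 10 of 12 alveolar macrophage markers tested. They were negative in 4 of 8 NK cell markers and in 6801 of all 12777 genes tested. The neutrophil marker sums of the same libraries are given beside Adam8. The parts of neutrophil, B cell, T cell and macrophage number in Cd44, Plaur and Ctss were not tested.

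**Figure D5:**
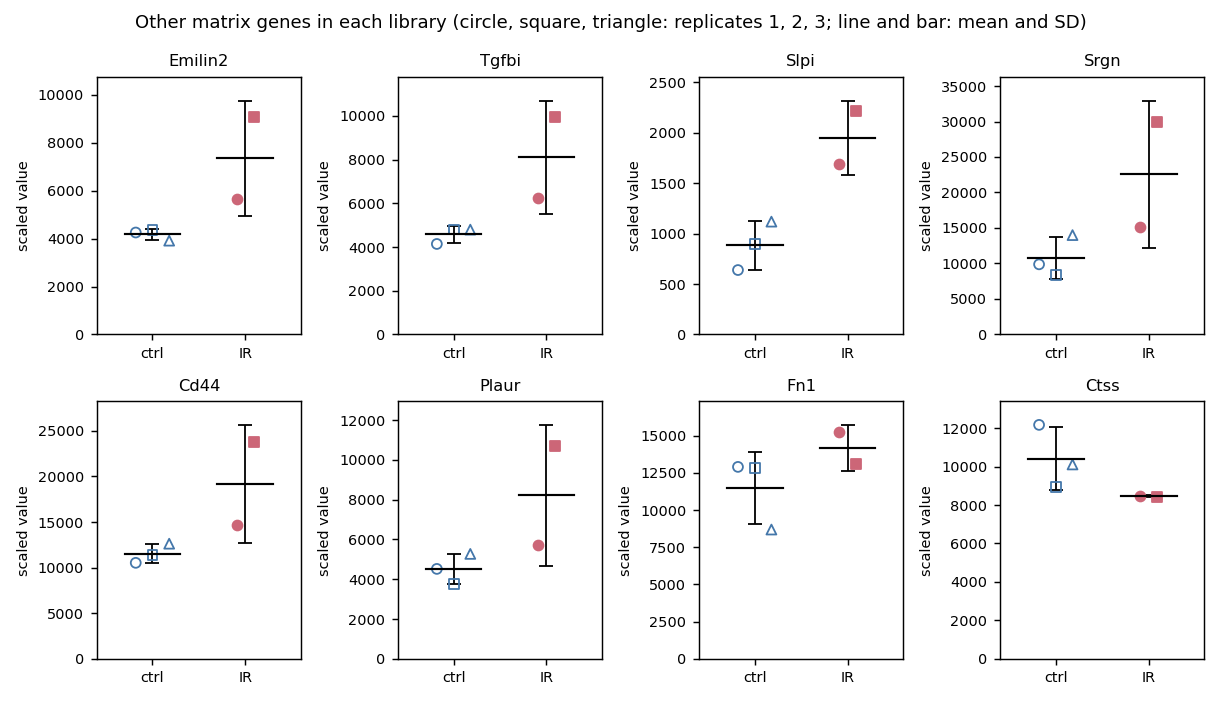
Scaled values of 8 other matrix genes in the 3 ctrl (blue, open) and 2 IR (red, filled) libraries, with a line at the group mean and a bar for the SD. Emilin2, Tgfbi and Slpi passed the threshold, and in all but Fn1 and Ctss IR replicate 2 is the highest library.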

How the data were processed

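CD45+ lung cells gave 3 ctrl and 2 IR libraries, made with a stranded total RNA kit for small inputs (SMARTer Pico, v2), per the labels' protocols. HISAT2, HTSeq and the build mm10 are named per the submitters' processing notes. Not given in the sources used here are annotation, strand setting, gene filters and the method of scaling. The deposited values have 1 decimal and were read as signal, meaning counts that the authors had scaled. Low values were multiples of 1 step within 0.1 for 86.1% (ctrl replicate 3) to 100% of values. Whole reads were thus not recovered in every library, and tests made for counts were left out.

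Replicate numbers follow accession order only. The 12777 rows at 10 or above in 2 or more libraries entered limma 3.58.1, run in R 4.3.3 with statmod 1.5.0, on log2(value + 1), with a mean trend and robust estimation, without covariates. P-values were two-sided, adjusted by Benjamini-Hochberg over all 12777 rows and called under 0.05. Fold changes on this scale understate the change of low genes. The fit was also run on simulated data, with an outcome not reported here, so that run does not vouch for the calls. A gene not called was not thereby shown to be unchanged. An exact permutation p over 3 against 2 libraries is at least 0.1, so none is reported. The 14 alternatives (scaling, pseudocount, minimum value, weights, robust estimation, each library left out) are given in the closing section. Counting error was not derived from the scaled values, so no interval is given.

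Coordinates, exon lengths and overlaps came from GENCODE for GRCm38, in which all 107 members were found by symbol. Exons of 25 members overlap a gene on the opposite strand and those of 6 a gene on the same strand, and such values are uncertain. The promoter came from RefSeq for GRCm38.p6.

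Members and gene lists were chosen with earlier results of these data known. Genes named are every member called and, in each family, the 3 tested members with the highest mean and the 3 with the smallest p. In related lists the rule took those called and the 3 highest, and not all of these are described here. Some members are not reported here by name. Adam17, Adam9, Adam22, Adam23, Mmp2, Mmp12, Col1a1, Col1a2, Col3a1, Col4a5, Loxl3, Lama5 and Adam33 were chosen after their values were seen. So were Epcam, Acta2, Kdr, Ednrb, Cdh5 and the other genes named outside this rule. Plaur meets the rule but was also chosen after its values were seen.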

Additional observations from a re-analysis of the deposited data

How the results depend on the processing

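The count of members called was 1 and became 2 with quantile normalization or with 10 added before the log (Adam8 and Timp2), and 0 with no minimum value, when more rows were tested. Leaving out 1 library gave 0 to 4 members. Over all genes the count was 192 (76.0% higher), and became 293 with quantile normalization (64.8% higher), 314 with 10 added and 18 with no minimum value. Leaving out 1 library gave 19 (without ctrl replicate 1) to 1006 (without IR replicate 1, 44.4% higher). Dividing by library totals gave 259 calls (55.2% higher) and shifted the median over all genes by -0.12 (log2), with Adam8 still called. The causes of these shifts were not tested. The planned count-based tests were not run, because whole reads were not recovered in every library. No paired analysis was possible because the labels carry no replicate numbers that pair libraries. With 2 IR libraries, a fit without 1 of them assumes that the lone library varies like the ctrl group.

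Of 37 named members, 23 were tested in all 14 alternatives, and 14 fell under the minimum value in at least 1. The sign of the log2 fold change was kept by 20 members in each alternative that tested them. The other 17, none of them called, changed sign when 1 library was left out, with these ranges over the libraries left out. Among matrix proteins, Adamtsl4 ran from -0.31 to 2.55, Adamtsl5 from -0.34 to 2.68, Lamb2 from -0.54 to 2.65 and Lamb3 from -0.57 to 1.37. Among proteases, Adam10 ran from -0.25 to 0.075, Adamts10 from -1.68 to 0.45, Mmp15 from -0.62 to 2.64, Mmp17 from -4.16 to 0.14 and Mmp19 from -0.59 to 0.27. Among inhibitors and serpins, Timp3 ran from -0.064 to 2.43, Serpina3f from -0.024 to 0.53, Serpina3g from -0.012 to 0.46, Serpinb1a from -0.43 to 0.22, Serpinb9 from -0.97 to 0.19, Serpinc1 from -0.22 to 1.76, Serpine2 from -4.39 to 0.31 and Serpini1 from -0.75 to 0.42.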
